A study of Canis lupus familiaris with 8 samples.

Results

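The miR-181 family was measured in serum of Doberman Pinschers with dilated cardiomyopathy (DCM) and of healthy Doberman Pinschers, on a 1-colour microarray that carried probes for canine (cfa) and murine (mmu) miRNAs. A miRNA is a short RNA that lowers the output of messenger RNAs which pair with its seed, the bases near its 5′ end. The family was taken as every array name that, without its species prefix, is miR-181a, miR-181b, miR-181c or miR-181d, with passenger-strand (star) names left out. These are 7 of 1224 names: cfa-miR-181a, cfa-miR-181b, cfa-miR-181c, cfa-miR-181d, mmu-miR-181a, mmu-miR-181b and mmu-miR-181c. A canine and a murine listing of one name were kept apart throughout, since they are read by different probes. The sequences of the probes and of the miRNAs were not used here.

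The DCM group held 4 client-owned dogs (arrays labelled DoCM5, DoCM6, DoCM7 and DoCM8) in the occult stage of the disease. All of them received pimobendan and an ACE inhibitor, and each also received either sotalol or amiodarone. For the dog it calls DoCM8, the study states that the owner did not give the drugs regularly. The control group held 4 healthy dogs (Con1 to Con4), for which no drug is named. The labels give 7 to 11 years of age for both groups, while ages in the study's own description reach outside that range. Each array is 1 serum sample of 1 dog. All 8 lay on 1 slide, with the DCM arrays in its first row and the control arrays in its second row, so row, treatment and disease cannot be told apart. Serum RNA comes from many tissues, and the number of cells that release a miRNA cannot be told apart from the amount released per cell.

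The members of the family carry the same seed and are made as neighbouring pairs from duplicated gene clusters. They are known best from lymphocytes, where miR-181a sets the sensitivity of the T-cell receptor during thymic selection. miR-181b is known for dampening NF-kappaB signalling in endothelium, miR-181c for acting inside heart mitochondria, and miR-181d as a repressor of the DNA repair enzyme MGMT. In the RefSeq gene table of a later dog assembly, 6 MIR181 genes stood in 3 pairs. MIR181A-1 and MIR181B-1 lay next to each other and beside PTPRC, the gene of the leukocyte surface phosphatase CD45. MIR181B-2 and MIR181A-2 formed the next pair. MIR181D and MIR181C formed the last, separated by 2 genes from MIR23A, MIR27A and MIR24-2.

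Every listing was printed as 40 features on the array, from 2 probes of 20 features each. The scanner software calls a feature well above background when its signal clearly exceeds the local background and its noise. Between 10817 and 14000 of 48960 miRNA features passed on each array, and none was saturated. The dimmest signal that passed was between 6.21 and 8.11 intensity units, so the array sets a floor at about that level. Over the names with a kept feature, DoCM5 had the highest median of the log2 mean signal (5.09, against 3.68 to 4.85 on the other 7 arrays). It also had the lowest median correlation with the others (0.924, against 0.957 to 0.968). The study left out the array it calls DoCM8, because its values differed from those of the other samples. In the deposited files that description fits DoCM5 better: DoCM8 had the highest median correlation of the 8 arrays (0.968). Whether the labels of these arrays were exchanged between the files and the study could not be settled, so the set without DoCM5 may be the one the study tested. Comparisons are therefore given for the 7 arrays without DoCM8, for all 8, and for the 7 arrays without DoCM5, and none of these sets is preferred.

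Detection split the family. cfa-miR-181a was the only listing with nearly all of its 40 features well above background on every array: 40 on DoCM5, DoCM6 and DoCM8 and on each control array, and 32 on DoCM7. mmu-miR-181a had 38 on DoCM5, 24 on DoCM6, 19 on DoCM7 and 20 on DoCM8, against 24, 18, 22 and 20 on Con1 to Con4. Outside DoCM5, this was close to the 20 features of a single probe, and 20 of its 26 kept features came from that probe. Both listings of miR-181a thus passed on all 8 arrays.

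The other listings were dim. mmu-miR-181c had 40 features well above background on DoCM5, 0 on DoCM6, 0 on DoCM7 and 4 on DoCM8, and 18, 0, 27 and 3 on Con1 to Con4. cfa-miR-181d had 35 on DoCM5, 1 on DoCM6 and 0 on DoCM7 and DoCM8, and 9, 0, 13 and 2 on the control arrays. mmu-miR-181b had 34 on DoCM5, 4 on DoCM6 and 0 on DoCM7 and DoCM8, and 6, 0, 13 and 1 on the control arrays. These listings shared one order: DoCM5 first, Con3 and Con1 next, and few or no features on the other 5 arrays.

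cfa-miR-181b and cfa-miR-181c were not well above background. cfa-miR-181b passed with 1 feature on Con1 and 1 on Con3, and its mean signal over all 40 features lay between 0.358 and 1.46 intensity units on the 8 arrays. cfa-miR-181c passed with 1 feature on DoCM5, and its mean signal lay between -0.641 and 0.555. Neither kept a feature under the filter used for the comparison (well above background on at least 2 arrays of the same group), so neither has a normalized value or a fold change under it. Any difference between the groups in these names was not detectable at this signal.

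**Figure D1:**
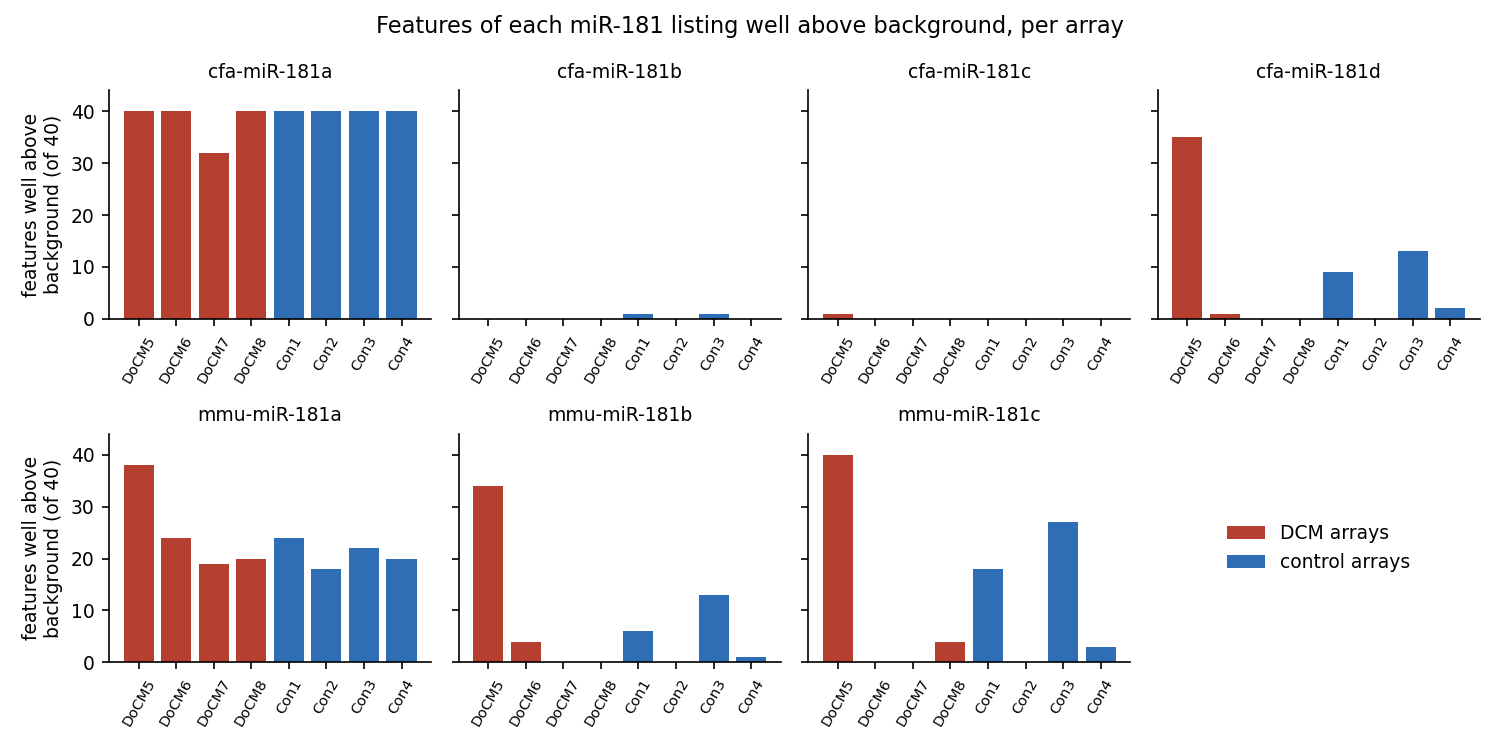
Number of the 40 features well above background (vertical axis) on each array (horizontal axis), 1 panel per listing, with DCM arrays in red and control arrays in blue. cfa-miR-181a stands at 40 on 7 arrays and 32 on DoCM7, while mmu-miR-181b, mmu-miR-181c and cfa-miR-181d reach 34 to 40 on DoCM5 and 27 or fewer elsewhere.

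The numbers of features were compared between the groups in an exact two-sided permutation test over the 8 arrays. cfa-miR-181a had a mean of 38 ± 4 features well above background in DCM against 40 ± 0 in controls (SD, n = 4 each), and since 7 of 8 arrays stood at the maximum, its count cannot show a difference. For mmu-miR-181a the means were 25.3 ± 8.77 and 21.0 ± 2.58 (exact p = 0.543). For mmu-miR-181c they were 11 ± 19.4 and 12 ± 12.7 (exact p = 0.914). cfa-miR-181b and cfa-miR-181c, with 2 and 1 passing features in all, cannot show a difference either. For cfa-miR-181d and mmu-miR-181b the exact p was 0.971 and 0.886, where the smallest value that 4 against 4 arrays allow is 0.0286. The difference between DCM and control moved with DoCM5: without it, that of cfa-miR-181d went from 3 to -5.67 features (exact p = 0.257) and that of mmu-miR-181b from 4.5 to -3.67 features (exact p = 0.457). That of mmu-miR-181a went from 4.25 to 0 features, and that of mmu-miR-181c from -1 to -10.67 (exact p = 0.343).

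The star names, which stand for the other strand of the same hairpins, were near or below background. For mmu-miR-181a-1*, mmu-miR-181a-2*, mmu-miR-181b-1*, mmu-miR-181b-2* and mmu-miR-181c*, between 0 and 2 of 40 features were well above background on any array. mmu-miR-181d* reached 13 on Con3 and 6 on DoCM6, with 0 to 3 on the other 6 arrays, and kept 2 features.

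Of the 438 names with a kept feature, 5 belonged to the family, and these were compared on a glog2 scale, a log2-like scale that stays linear near 0, after the arrays had been brought to a common scale. A value is the mean over the kept features of a name. Values of different listings were not ranked against each other, because probes differ in how strongly they bind.

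cfa-miR-181a had a normalized value of 4.45 on DoCM5, 6.68 on DoCM6, 3.64 on DoCM7 and 4.24 on DoCM8, and of 5.47, 4.90, 5.34 and 3.88 on Con1 to Con4. DoCM6 was the highest of the 8 arrays and DoCM7 the lowest, so the DCM dogs spanned the whole control range. On the 7 arrays without DoCM8, the means were 4.92 ± 1.58 in DCM (SD, n = 3) and 4.89 ± 0.72 in controls (n = 4). The difference was 0.03 on the log2 scale (SE 0.65, 95% interval -1.39 to 1.44, limma, unadjusted p = 0.966, adjusted p = 1.0). With all 8 arrays it was -0.14 (95% interval -1.43 to 1.14, unadjusted p = 0.813, adjusted p = 0.99), and without DoCM5 it was -0.04 (95% interval -1.61 to 1.53, unadjusted p = 0.955, adjusted p = 0.984). On the 7 arrays without DoCM8 the estimate followed single arrays: it was -0.85 without DoCM6, -0.31 without Con4 and 0.67 without DoCM7, and it was not called in any of these cases.

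mmu-miR-181a had a normalized value of 4.62 on DoCM5, 3.47 on DoCM6, 3.34 on DoCM7 and 3.04 on DoCM8, and of 3.43, 2.95, 3.31 and 3.27 on Con1 to Con4. DoCM5 stood above the other 7 arrays, which lay within the range 2.95 to 3.47. The difference on the 7 arrays was 0.57 (SE 0.38, 95% interval -0.25 to 1.40, limma, unadjusted p = 0.156, adjusted p = 1.0). With all 8 arrays it was 0.38 (95% interval -0.38 to 1.14, unadjusted p = 0.298, adjusted p = 0.961). With DoCM5 left out in place of DoCM8 it was 0.05 (95% interval -0.45 to 0.55, unadjusted p = 0.833, adjusted p = 0.971).

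mmu-miR-181b, with 6 kept features, had normalized values of 3.06, 2.17 and 2.23 on DoCM5, DoCM6 and DoCM7, 1.79 on DoCM8, and 2.08, 1.68, 2.01 and 1.67 on Con1 to Con4. On the 7 arrays without DoCM8 all 3 DCM values lay above all 4 control values, a separation shown in that direction by 2.74% of the 438 names. The exact two-sided permutation test over these arrays gave p = 0.0286, the smallest value possible here. In limma, the difference was 0.63 (SE 0.34, 95% interval -0.12 to 1.38, unadjusted p = 0.0934, adjusted p = 1.0). DoCM8 lay inside the control range, and with all 8 arrays the difference was 0.46 (exact p = 0.143, limma unadjusted p = 0.174). With DoCM5 left out in place of DoCM8 it was 0.21 (exact p = 0.286). Its features well above background lay mostly on DoCM5 (34 of 40) and Con3 (13), with 0 on DoCM7, DoCM8 and Con2. At least 50% of its kept features were well above background on 2 of the 3 DCM arrays and 2 of the 4 control arrays, so the separation ranks values at the floor and the difference is not a measured fold. Some kept features also passed the filter through DCM arrays. One of its probes kept 2 features, with 14 passing on DoCM5, 2 on DoCM6, 1 on Con1 and 4 on Con3. The separation thus rests in part on features that the DCM arrays selected, and no conclusion is drawn from it. Without a filter the difference was 0.395, and where 1 array was enough it was 0.29. Before normalization, the mean signals of the kept features overlapped, with 13.4, 5.20 and 3.64 on DoCM5, DoCM6 and DoCM7 against 2.94 to 6.77 on the control arrays.

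mmu-miR-181c, with 18 kept features, had normalized values of 4.16 on DoCM5, 1.78 on DoCM6, 1.74 on DoCM7 and 2.41 on DoCM8, and of 2.63, 1.5, 2.72 and 2.45 on Con1 to Con4. Apart from DoCM5, every DCM array lay within the control range. The difference was 0.23 on the 7 arrays without DoCM8 (95% interval -1.02 to 1.49, limma unadjusted p = 0.691) and 0.20 with all 8 (95% interval -0.91 to 1.31, unadjusted p = 0.704). It changed sign to -0.35 with DoCM5 left out instead (95% interval -1.12 to 0.42, unadjusted p = 0.333, adjusted p = 0.84). Without DoCM5, at least 50% of the kept features were well above background on 2 of 4 control arrays and on 0 of 3 DCM arrays, so this difference compares values that lie mostly at the floor. The kept features also passed the filter mainly through controls, with 18 features well above background on Con1 and 27 on Con3. On DoCM6, DoCM7 and DoCM8 there were 0, 0 and 4. A lower DCM value without DoCM5 was thus partly set by the filter, and no conclusion is drawn from it.

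cfa-miR-181d, with 10 kept features, all from 1 of its probes, had normalized values of 3.71 on DoCM5, 1.54 on DoCM6, 1.97 on DoCM7 and 1.69 on DoCM8, and of 2.51, 1.48, 2.21 and 1.75 on Con1 to Con4. The pattern was that of mmu-miR-181c, with DoCM5 above the control range and the others inside it. The difference was 0.42 on the 7 arrays without DoCM8 (95% interval -0.68 to 1.52, limma unadjusted p = 0.419) and 0.24 with all 8 (95% interval -0.76 to 1.24, unadjusted p = 0.61). It was -0.25 with DoCM5 left out instead (95% interval -0.90 to 0.40, unadjusted p = 0.4, adjusted p = 0.84). Without DoCM5, only 2 of 4 control arrays and 0 of 3 DCM arrays were above background by the same measure, so the size of the difference there is not a measured fold. Here too the kept features passed the filter mainly through controls, with 9 features well above background on Con1 and 13 on Con3. On DoCM6, DoCM7 and DoCM8 there were 1, 0 and 0. The direction without DoCM5 was thus partly set by the filter, and no conclusion is drawn from it.

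**Figure D2:**
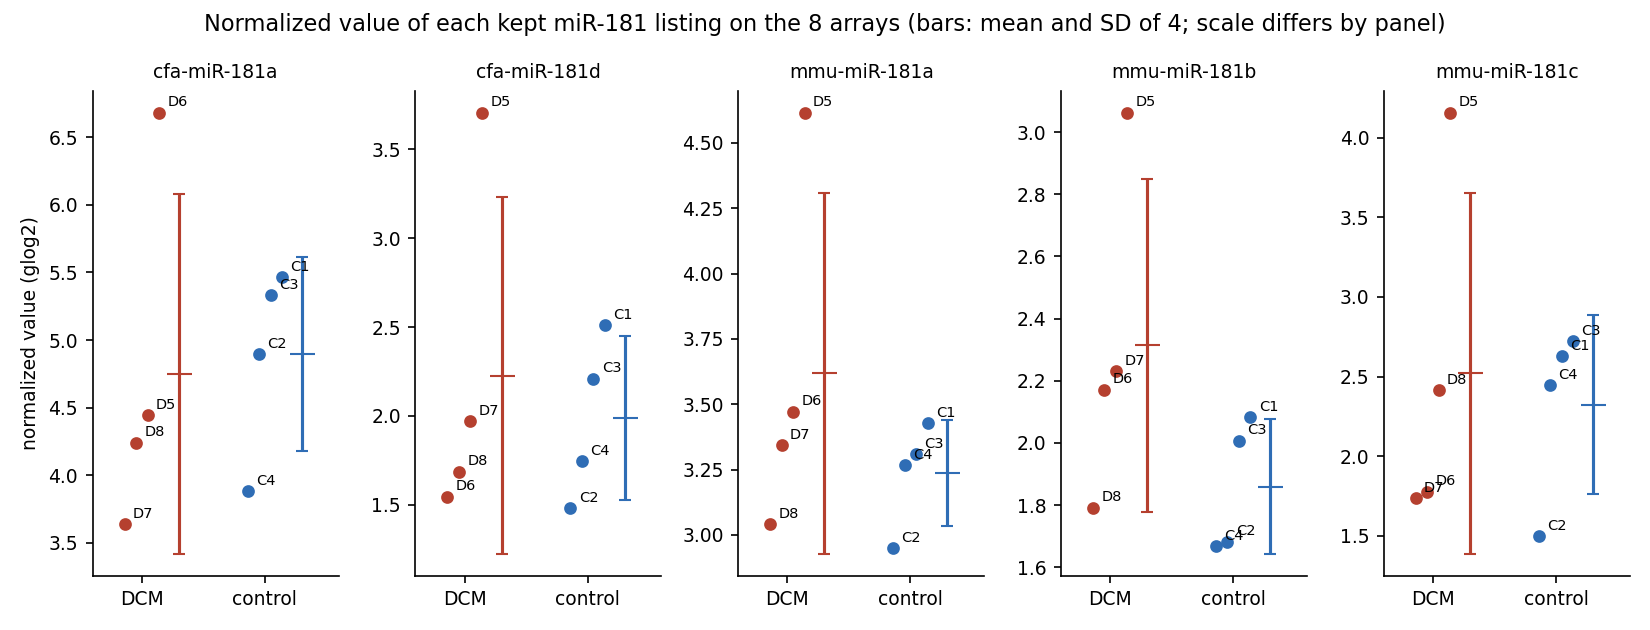
Normalized glog2 value (vertical axis) of the 5 kept listings on each DCM array (red, D5 to D8 for DoCM5 to DoCM8) and each control array (blue, C1 to C4 for Con1 to Con4), with mean and SD of 4 arrays beside the points; the scale differs between panels. D6 is highest for cfa-miR-181a and D5 is highest for the other 4 listings.

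By the thresholds of the study's methods (unadjusted p under 0.05 and a fold change over 1.5), 0 of the 5 members were called on the 7 arrays, where 2.51% of the 438 names were called. With all 8 arrays 0 of 5 were called against 3.88% of all names, and with DoCM5 left out instead 0 of 5 against 5.25%. The shares are small enough that 0 of 5 says little about the family. After Benjamini-Hochberg adjustment in limma 0 of 438 names passed in any of these sets of arrays, with 11, 18 and 29 names at an unadjusted p under 0.05. The median difference over the 5 members was 0.42, 0.24 and -0.04 in the 3 sets, and over all 438 names it was 0.002, -0.001 and 0.005. The intervals leave room for sizeable changes: for cfa-miR-181a they span -1.61 to 1.53 over the 3 sets.

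**Figure D3:**
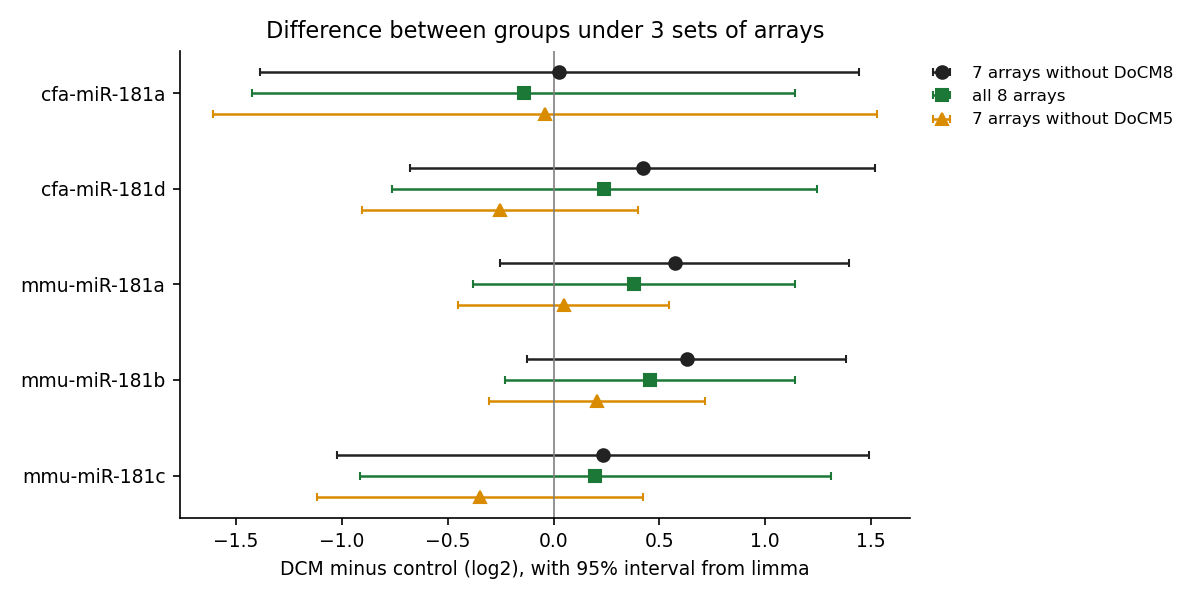
Difference between DCM and control (log2, horizontal axis) with its 95% interval from limma for the 5 kept listings, on the 7 arrays without DoCM8 (black circles), on all 8 (green squares) and on the 7 arrays without DoCM5 (orange triangles). All 15 intervals include 0, and the estimates of cfa-miR-181a, cfa-miR-181d and mmu-miR-181c lie below 0 without DoCM5, as does that of cfa-miR-181a with all 8 arrays.

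The 2 listings of miR-181a gave different orders of the 8 dogs, although DoCM7, DoCM8, Con2 and Con4 were the 4 dimmest arrays for both before normalization. Before normalization, the probes of cfa-miR-181a averaged 113 and 101 intensity units on DoCM6, 54.6 and 55.6 on Con1, 61.6 and 62.9 on Con3, 33.8 and 57.4 on DoCM5, and 24.4 or less on the other 4 arrays. The brighter probe of mmu-miR-181a averaged 62.6 on DoCM5, 20.4 on Con3, 17.6 on Con1 and 15 on DoCM6, with 8.59 to 10.2 on the other 4 arrays. Its dimmer probe averaged 11.2 on DoCM5, 5.10 on Con1, 4.25 on Con3 and 3.74 on DoCM6, with 1.65 to 2.54 on the other 4 arrays. Apart from DoCM5, these means of the dimmer probe lay under the floor of the array. Both canine probes put DoCM6 first and both murine probes put DoCM5 first, although the canine probes also differed from each other on DoCM5, where probe 1 averaged 33.8 and lay below Con1 and probe 2 averaged 57.4 and lay above it.

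**Figure D4:**
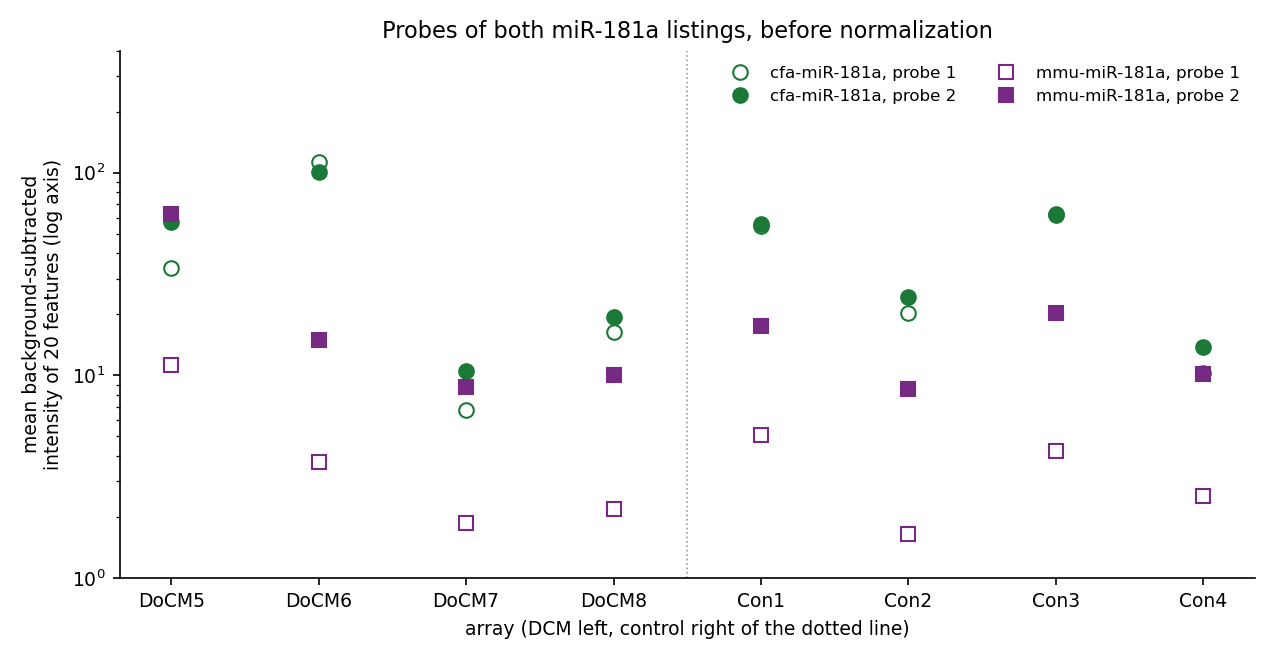
Mean background-subtracted intensity of the 20 features of each probe (vertical log axis) on each array for cfa-miR-181a (green circles) and mmu-miR-181a (purple squares), with probe 1 open and probe 2 filled. Both canine probes have their highest value on DoCM6 (113 and 101), and both murine probes have theirs on DoCM5 (11.2 and 62.6).

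After normalization, the canine minus the murine value was -0.17 on DoCM5, 3.21 on DoCM6, 0.30 on DoCM7 and 1.2 on DoCM8, and 2.04, 1.95, 2.03 and 0.61 on Con1 to Con4. Only its variation between arrays can be read, since the offset between probes is unknown. The DCM mean was 1.13 ± 1.5 and the control mean 1.66 ± 0.70 (SD, n = 4 each), and the groups did not separate (difference -0.52, exact two-sided permutation p = 0.6). The SD of the difference over the 8 arrays was 1.12. Among the 35 names with both a canine and a murine listing kept, this was the highest, with a median of 0.21. miR-200b followed with 0.82 and miR-483 with 0.78, while miR-223, a myeloid miRNA, had 0.04 and miR-15b, a regulator of cell division and survival, 0.01. For miR-181a, the correlation of both listings over the 8 arrays was 0.00 (Pearson's r = 0.004), against a median of 0.919 over the 35 names. It was not alone in this: r was -0.01 for miR-483, 0.07 for miR-500 and 0.09 for miR-200b.

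**Figure D5:**
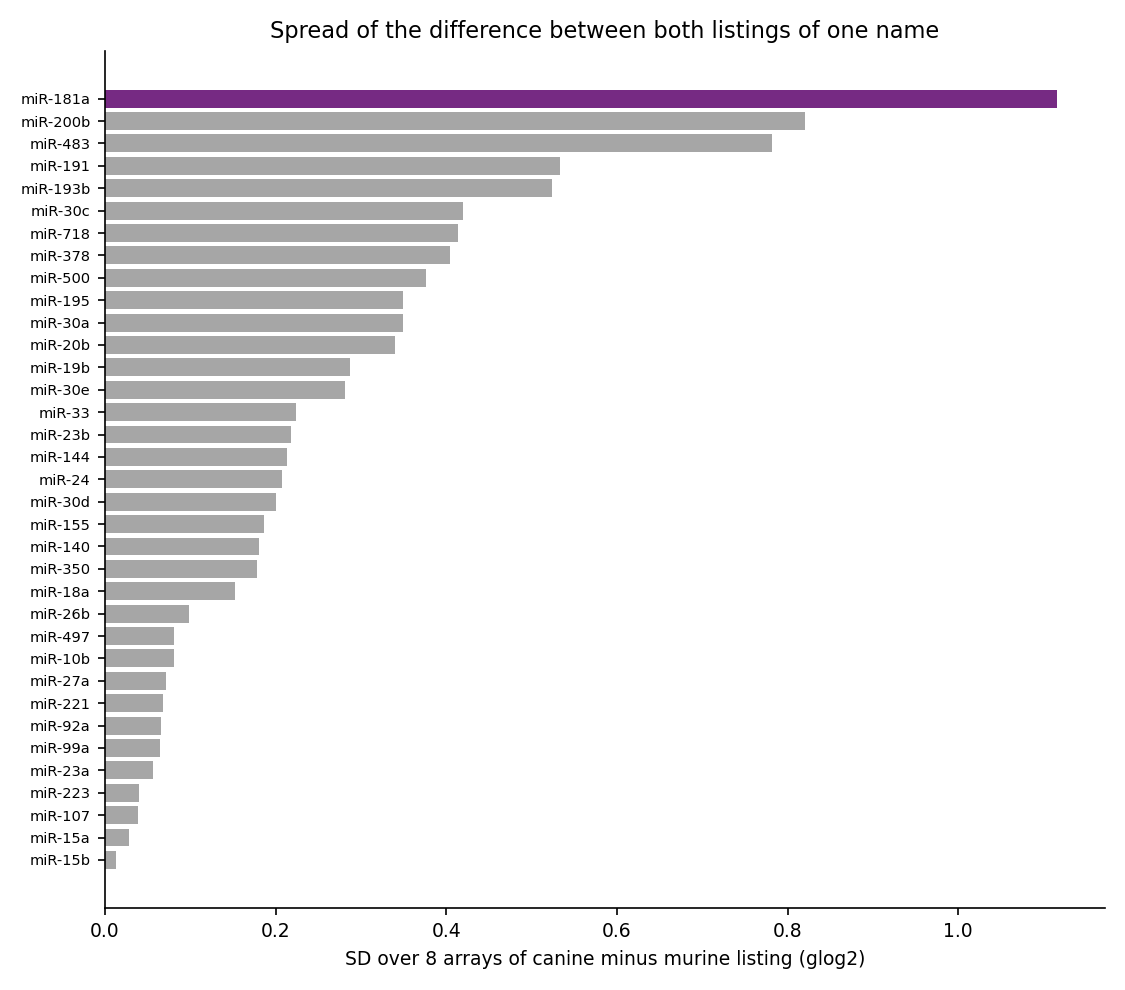
SD over the 8 arrays of the difference between the canine and the murine listing (glog2, horizontal axis) for each of the 35 names with both listings kept, miR-181a in purple. miR-181a has the longest bar (1.12) and the median is 0.21.

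The other pairs of listings were compared in the same way, 10 pairs in all over 8 arrays. cfa-miR-181a had no correlation past the test with any of the 4 others, with r between -0.15 and 0.04 and Spearman's rho between -0.05 and 0.33 (exact permutation p of r from 0.721 to 0.991, 0.94 to 0.991 after Benjamini-Hochberg adjustment over the 10 pairs). These values move with single arrays: without DoCM5, r was 0.43 with mmu-miR-181a and 0.36 with mmu-miR-181b, and without DoCM5 and DoCM6 it was 0.52 with cfa-miR-181d. Without DoCM6 and DoCM7, the arrays farthest from the median, r lay between -0.11 and 0.13. Among the 4 others, r lay between 0.72 and 0.95 in all 6 pairs. The highest was mmu-miR-181a with mmu-miR-181b (r = 0.952, exact p = 0.00325, adjusted 0.0286, rho = 0.857, exact p = 0.0107). It was followed by cfa-miR-181d with mmu-miR-181c (r = 0.914, exact p = 0.00573, adjusted 0.0286, rho = 0.833, exact p = 0.0154). Without DoCM5 and the array next farthest from the median, r fell to 0.69 and 0.62 in these pairs and ranged from -0.32 to 0.69 over the 6. Leaving out DoCM5 and DoCM6 instead gave r between 0.52 and 0.87 in 5 of the 6 pairs and 0.09 for mmu-miR-181b with mmu-miR-181c. The size of these correlations thus depends on which arrays are left out.

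DoCM5 was the highest array for 4 of the 5 kept members and for 29.7% of all 438 names, and DoCM6 was the highest for 13.7% of names. The lead of the highest array over the next was 1.44 for mmu-miR-181c, 1.22 for cfa-miR-181a, 1.2 for cfa-miR-181d, 1.14 for mmu-miR-181a and 0.83 for mmu-miR-181b. A lead at least as large as that of mmu-miR-181c was found in 3.88% of names, and one at least as large as that of cfa-miR-181a in 5.71%. The SD of cfa-miR-181a over the 8 arrays was 0.99, against a median of 0.49 over all names, and 18 of 438 names, itself included, had an SD as large.

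The names whose values were most like each member over the 8 arrays, among 347 names with at least 20 kept features, differed in the same manner. For cfa-miR-181a they were mmu-miR-1965 (Pearson's r = 0.964), mmu-miR-677* (r = 0.952) and mmu-miR-1198-5p (r = 0.890), each with its highest value on DoCM6 as well. For mmu-miR-181a they were cfa-miR-151 (r = 0.943), cfa-miR-7 (r = 0.941) and cfa-miR-106a (r = 0.915). For mmu-miR-181b they were cfa-let-7f (r = 0.918), cfa-miR-7 (r = 0.884) and cfa-miR-151 (r = 0.879). For mmu-miR-181c they were cfa-miR-324 (r = 0.980), cfa-miR-93 (r = 0.977) and mmu-miR-191* (r = 0.973), and for cfa-miR-181d cfa-let-7a, cfa-miR-425 and cfa-miR-151 (r = 0.971 each). The median r over the 347 names was between -0.25 and -0.05 for the 5 listings. These are descriptions over 8 points that share DoCM5 as the far point for all listings other than cfa-miR-181a.

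The hairpins of miR-23a, miR-27a and miR-24 stand near those of miR-181c and miR-181d, and their canine and murine listings were all kept (6 of 6, 40 features each). miR-27a, known for its part in lipid metabolism and angiogenesis, had the widest difference of these, 0.23 in the murine listing (SE 0.33, limma unadjusted p = 0.504) and 0.11 in the canine (SE 0.33, unadjusted p = 0.747). cfa-miR-23a differed by 0.05 and mmu-miR-24 by -0.07. The 6 listings ranged from -0.07 to 0.23 with a median of 0.05, and 0 of 6 were called, where 2.51% of all names were. With all 8 arrays mmu-miR-27a differed by 0.37 and cfa-miR-27a by 0.27, and without DoCM5 by 0.38 and 0.27, within a range of -0.16 to 0.38 over the 6, again with 0 of 6 called. Their summed level on the log2 scale was 12.92 on DoCM5, against 12.49 to 12.91 on the other 7 arrays, so these neighbours did not show the lead of DoCM5 seen in mmu-miR-181c and cfa-miR-181d.

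Lists of miRNAs known from blood cells and tissues were read beside the family. All 7 listings of the erythrocyte list were kept, 8 of 9 of the leukocyte list, 5 of 5 of the platelet and endothelium list, 4 of 7 of the heart and skeletal muscle list (cfa-miR-133a, cfa-miR-208a and cfa-miR-208b were not) and the liver miRNA cfa-miR-122. On the 7 arrays, 1 leukocyte listing (mmu-miR-142-3p) and 1 erythrocyte listing (mmu-miR-144) were called higher in DCM, beside 2.51% of all names called in either direction. With all 8 arrays cfa-miR-144 was called as well, where 3.88% of all names were called. Without DoCM8 the list medians were 0.10 for leukocytes, 0.02 for erythrocytes, 0.14 for platelets and endothelium, 0.24 for muscle and -0.77 for the single liver listing. Without DoCM5 they were 0.07, -0.12, -0.17, 0.08 and -0.34, so those of the erythrocyte and platelet lists changed sign. The summed level (log2) of the leukocyte list was highest on DoCM6 (13.32, against 12.25 to 13.28 on the other arrays), the array on which cfa-miR-181a was highest. That sum is carried by miR-223, and cfa-miR-223 was the only 1 of the 8 kept leukocyte listings with its highest value on DoCM6. The summed level of the platelet and endothelium list was highest on DoCM5 (10.53, against 8.97 to 9.58), the array on which the other 4 members were highest, and 4 of its 5 listings were highest there. The erythrocyte sum was lowest on DoCM5 (16.83, against 16.97 to 17.34), but it is carried by cfa-miR-451. Of the 7 erythrocyte listings, 4 had their highest value on DoCM5, namely cfa-miR-16, cfa-miR-25, cfa-miR-92a and mmu-miR-92a. The liver listing was lowest on DoCM5 (4.92, against 5.32 to 7.69). The part of these cell types, and of the overall brightness of DoCM5, in the values of the family was not tested.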

How the data were processed

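Serum RNA of 8 dogs was measured on a custom 1-colour (Cy3) Agilent array with canine and murine miRNA probes. The authors deposited scanner files made with Agilent Feature Extraction 10.7.3.1 and a value table with the same intensities. The deposited intensity of each feature is background-subtracted and not normalized between arrays. The deposited flags (other values, 0 or 1) mark features well above background. The members and lists were chosen with earlier results of these data known.

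Features well above background on at least 2 arrays of one group, DCM or control, were kept and outlier-flagged values left out, which left 438 names. The methods name vsn and limma. Variance-stabilizing normalization was programmed for this work (Python 3.11.15, numpy 2.4.6, least trimmed squares quantile 0.9 in 5 slices) and fitted once over the 8 arrays, so that printed and tested values are the same. It was tested on simulated data. limma 3.58.1 in R 4.3.3 compared DCM with control with Benjamini-Hochberg adjustment over all names. Exact two-sided permutation tests were used for single values and detection. With 3 or 4 arrays a group, the number of arrays limits the precision. Each array is a different dog, so p-values measure the spread between dogs.

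Named were all members, their star names, miR-23a, miR-24 and miR-27a, marker lists, and the 3 names most like each kept member. mmu-miR-181b and mmu-miR-181c, found by the rule in the files, were added to the planned comparisons. Alternatives tried were other sets of arrays, all 8 arrays with array weights, 75th percentile and quantile scaling, normexp (offset 50, on the median signal), other filters and summaries, the slide column as a block, and normalization over the 7 arrays alone. Gene order came from RefSeq for an assembly other than the canFam2 build of the array's grid file, so no coordinates are given.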

Additional observations from a re-analysis of the deposited data

Results flagged for a closer look

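In each group of 4 arrays, the array farthest from the others was compared with the group's range (Dixon's test), for 26 groups of values. For continuous values chance passes about 1 in 20 groups. Of the 6 that passed, 5 are counts bounded at 0 and 40, for which that rate does not hold, so the number that passed is not read against chance. DoCM5 stood apart within DCM in features well above background for mmu-miR-181c (40, against 0 to 4), cfa-miR-181d (35, against 0 to 1), mmu-miR-181b (34, against 0 to 4) and cfa-miR-181c (1, against 0). DoCM7 stood apart for cfa-miR-181a with 32 features, against 40 on each other DCM array, and it had the lowest median signal of the 8 arrays. Con4 stood apart among controls in the canine minus the murine value of miR-181a (0.61, against 1.95 to 2.04). Normalized values of the 5 kept listings did not pass in either group.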

How the results depend on the processing

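None of the 5 kept listings was called under any alternative, but the size and the direction of the differences moved. For cfa-miR-181a (0.03) the sign turned with all 8 arrays (-0.14), DoCM5 left out in place of DoCM8 (-0.04), all 8 arrays with array weights (-0.53) and the slide column as a block (-0.31), and the estimate ran from -0.85 to 0.67 when each array was left out, below 0 without DoCM6 or Con4. For cfa-miR-181d (0.42) it turned with DoCM5 left out in place of DoCM8 (-0.25) and with all 8 arrays and array weights together (-0.33), with a range of -0.23 to 0.85 over arrays left out, below 0 without DoCM5. For mmu-miR-181c (0.23) it turned in the same settings (-0.35 and -0.22), with a range of -0.57 to 0.64, below 0 without DoCM5 or Con2. mmu-miR-181a (0.57) turned only with all 8 arrays and array weights together (-0.052). It was 0.38 with all 8 arrays alone and 0.05 with DoCM5 left out in place of DoCM8. mmu-miR-181b (0.63) kept its sign in all 22 alternatives (0.07 with normexp to 0.81 with the median over features). Its size fell to 0.395 without a filter, 0.29 where 1 array was enough and 0.08 with all 8 arrays and array weights together.

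The 11 names called became 17 with all 8 arrays, 23 with DoCM5 left out in place of DoCM8, 34 with all 8 arrays and array weights together, 4 with normexp and quantile normalization, 41 of 1224 without a filter, 7 where a name needed 20 kept features and 26 where 1 array was enough. Leaving out each array gave 9 to 32, with 28 without DoCM5 and 32 without DoCM6. Normalization over the 7 arrays alone, chosen after seeing the data, gave 12.

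Differences in features well above background changed sign with the less strict flag of the scanner software for cfa-miR-181c (-0.25) and mmu-miR-181a (-0.50). Over arrays left out they ran from -5.67 to 6 for cfa-miR-181d, -3.67 to 7.67 for mmu-miR-181b and -10.67 to 4 for mmu-miR-181c. The first pair turned without DoCM5, and mmu-miR-181c without any 1 of DoCM6, DoCM7, DoCM8, Con1 or Con3. The difference between DCM and control in the canine minus the murine value of miR-181a (-0.52) kept its direction in all 12 alternatives (-1.22 to -0.09). cfa-miR-181b and cfa-miR-181c had a value only under looser filters. Without a filter they differed by -0.22 and -0.37, and where 1 array was enough by -0.20 and 1.38. In the last case cfa-miR-181c passed the thresholds (limma unadjusted p = 0.0499, adjusted p = 1.0), on the 1 feature kept because it was well above background on DoCM5. The cause of these changes was not tested. The replicate numbers of the groups do not overlap, so the numbers pair no arrays. The slide column paired 3 DCM with 3 control arrays by position, and as a block it gave 0.34 for cfa-miR-181d, 0.58 for mmu-miR-181a, 0.57 for mmu-miR-181b and 0.28 for mmu-miR-181c. Signals at the background floor limit what can be said of mmu-miR-181b, mmu-miR-181c and cfa-miR-181d. For mmu-miR-181c and cfa-miR-181d, so does a filter that their features passed mainly through control arrays. For mmu-miR-181b the same filter is a limit, since some of its kept features passed through DCM arrays.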
